A study of Mus musculus with 6 samples.

Results

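Mouse embryonic fibroblasts (MEFs), the adherent cells grown out of midgestation embryos, were compared between Trex1-deficient cultures (TKO) and wild-type cultures (WT) that had received no DNA. The comparison rests on 2 of the 6 arrays of the series, chosen by their titles, TKO-Mock and WT-Mock. The array of Sting and Trex1 double-deficient cells given no DNA (STKO-Mock) was read only for which differences remained without Sting. Each group was 1 array, so no difference has a replicate check, no p-value or standard deviation is given, and every value describes these arrays. The other 3 arrays are cells of the same 3 genotypes that received ISD (interferon stimulatory DNA), a synthetic DNA duplex, at 4 µg/ml for 6 h.

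The groups were TKO-Mock, cells lacking Trex1 and not given ISD, STKO-Mock, cells lacking both Sting and Trex1 and not given ISD, and WT-Mock, cells of neither deficiency and not given ISD. All cultures came from e13.5 embryos and carry the same strain label, C57BL6/129Sv. The share of each strain in a culture, the number of embryos behind it and whether the cultures were started separately are not stated in any source used here, so strain and genotype cannot be told apart. A genotype field of the labels disagrees with the titles on Sting for 5 of the 6 arrays. It reads Sting -/- for TKO-Mock and WT-Mock and Sting +/+ for STKO-Mock. Groups were taken from the titles.

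The targeted genes were read first. Sting1 was measured at a raw intensity of 195.6 on TKO-Mock, 117.5 on STKO-Mock and 224.6 on WT-Mock, and both STKO arrays (113.6 with ISD) were the lowest of the 6, which is the side the titles give. The brighter Trex1 probe was measured at 732.8 on TKO-Mock, 257.5 on STKO-Mock and 1088.3 on WT-Mock, a log2 difference of -0.64 for TKO-Mock and -2.44 for STKO-Mock against WT-Mock. The other detected Trex1 probe differed by -1.21 and -2.76. Trex1 signal was thus lower on both deficient arrays but still detected. Whether these probes lie in the deleted part of the gene is not known, so they do not check the Trex1 label. With ISD the brighter probe reached 848.7 on TKO-ISD and 6386.4 on WT-ISD.

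TREX1 is a nuclease of the cytosol that digests stray DNA from its 3′ ends. DNA that stays in the cytosol is bound by the sensor cGAS, whose product cyclic GMP-AMP activates STING. STING then recruits the kinase TBK1, which activates the transcription factor IRF3 and with it the gene of interferon beta. Secreted interferon acts through its receptor, JAK kinases and the transcription factors they activate, which bind the interferon-stimulated response element (ISRE) in the promoters of antiviral genes. Loss of TREX1 is known for interferon-driven inflammatory disease in mice and people.

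Promoters of 4 genes that were high on TKO-Mock are shown with that of Fcer1g, whose difference did not change without Sting. Capitals mark matches to the core of the ISRE, a pair of GAAA repeats with a gap of 2 bases of any kind between them, searched on both strands. All 4 hold a match and do not stand for the higher genes in general. Of the 12 genes with a window among the largest measured gains, 4 held one (33.3%). Trim30a, higher on STKO-Mock too, also holds a match. Each window runs 5′ to 3′ from 250 bases before to 50 bases after the annotated start, from RefSeq, build GRCm38.p6. Cxcl10, the gene of a chemokine that attracts T cells, has its match starting at base -213 from the start.
Cxcl10, chr5:92348840-92349139, minus strand: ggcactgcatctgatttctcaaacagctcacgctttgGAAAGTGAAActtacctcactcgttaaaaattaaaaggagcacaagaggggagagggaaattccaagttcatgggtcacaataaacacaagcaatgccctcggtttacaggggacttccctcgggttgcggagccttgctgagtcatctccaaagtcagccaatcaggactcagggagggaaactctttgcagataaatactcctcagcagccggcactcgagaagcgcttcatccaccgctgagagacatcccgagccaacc
Rsad2, the gene of the antiviral enzyme viperin, has a match at -120 on the other strand.
Rsad2, chr12:26456403-26456702, minus strand: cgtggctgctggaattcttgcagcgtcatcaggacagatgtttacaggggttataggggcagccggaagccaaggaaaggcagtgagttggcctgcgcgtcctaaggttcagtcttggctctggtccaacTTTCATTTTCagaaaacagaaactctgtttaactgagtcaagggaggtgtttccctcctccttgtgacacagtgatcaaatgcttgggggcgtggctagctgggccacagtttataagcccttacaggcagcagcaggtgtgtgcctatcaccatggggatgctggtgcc
Ifit3, the gene of an antiviral protein that acts with RNA-binding relatives, has matches at -156 and -122.
Ifit3, chr19:34583279-34583578, plus strand: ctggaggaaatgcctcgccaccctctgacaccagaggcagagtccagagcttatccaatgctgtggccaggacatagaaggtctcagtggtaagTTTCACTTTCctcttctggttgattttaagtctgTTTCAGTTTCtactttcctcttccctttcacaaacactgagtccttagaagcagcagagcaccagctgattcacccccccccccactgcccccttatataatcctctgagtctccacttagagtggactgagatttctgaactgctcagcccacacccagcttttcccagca
Ifi205, a member of the interferon-inducible Ifi200 family on chromosome 1, has matches at -134 and at 24 bases past the start.
Ifi205, chr1:174031706-174032005, minus strand: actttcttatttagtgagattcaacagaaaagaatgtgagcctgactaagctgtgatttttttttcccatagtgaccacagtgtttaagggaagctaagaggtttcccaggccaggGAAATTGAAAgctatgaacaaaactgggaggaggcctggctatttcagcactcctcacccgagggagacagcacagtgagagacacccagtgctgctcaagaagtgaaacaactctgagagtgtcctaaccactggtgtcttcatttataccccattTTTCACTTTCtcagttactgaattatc
Fcer1g, the gene of the signalling gamma chain of Fc receptors, has no match in this window.
Fcer1g, chr1:171234300-171234599, minus strand: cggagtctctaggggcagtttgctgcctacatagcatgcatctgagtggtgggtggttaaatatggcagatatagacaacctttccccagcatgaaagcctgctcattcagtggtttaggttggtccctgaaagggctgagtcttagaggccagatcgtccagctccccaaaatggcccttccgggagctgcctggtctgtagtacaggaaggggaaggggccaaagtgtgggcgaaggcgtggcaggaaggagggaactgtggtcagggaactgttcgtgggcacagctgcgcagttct

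Detected probes numbered 15451 on TKO-Mock, 15531 on STKO-Mock and 16177 on WT-Mock of 45281, and the median raw intensity of the 6 arrays lay between 76.8 and 85.3. A probe counts as detected when its signal exceeds more than 0.99 of the negative controls. Levels below are normalised log2 intensities of 1 probe a gene, the brightest detected, and a difference of 1 is 2-fold. The cell type label was set against marker genes. Of 14 fibroblast markers, 13 were detected on each mock array, with vimentin (Vim) at log2 13.53 on TKO-Mock, 13.60 on STKO-Mock and 13.46 on WT-Mock. Postn was not detected. Of 15 markers of macrophages and other leukocytes, 14 were detected on TKO-Mock, 14 on STKO-Mock and 13 on WT-Mock. The lysozyme gene Lyz2 stood at 15.15 on TKO-Mock, 15.18 on STKO-Mock and 15.13 on WT-Mock, and the macrophage receptor gene Csf1r at 13.24, 13.17 and 13.49 in the same order. Markers of both fibroblasts and macrophages, such as Vim, Lyz2 and Csf1r, were therefore abundant in the cultures labelled MEFs.

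The marker sums differed in size between arrays. Summed normalised intensity over the fibroblast markers was 25086.1 on TKO-Mock, 28436.3 on STKO-Mock and 32404.7 on WT-Mock. Of the 13 tested, 4 (Col1a1, Col3a1, Fn1 and Thy1) were at least 2-fold lower on TKO-Mock, where 5.72% of all genes were, and 0 were 2-fold higher. The markers did not move together. Under 2-fold, Col1a2 (0.98), Lum (0.67), Dcn (0.62) and Vim (0.07) were on the higher side. Pdgfra, Pdgfrb, Prrx1, S100a4 and Twist1 were on the lower side. Over the leukocyte markers it was 185608.0 on TKO-Mock, 180252.0 on STKO-Mock and 158554.3 on WT-Mock, and Fcer1g was the only one 2-fold apart. Without Fcer1g the leukocyte sum was 152352.5 on TKO-Mock, 149146.7 on STKO-Mock and 158547.9 on WT-Mock. Cd3e, a T cell marker, was not detected on any of the 3. Among other cell types, 2 of 9 endothelial and 2 of 8 neural and glial markers were detected on each mock array, and 6 of 9 chondrocyte and osteoblast markers, with Sox9 and Col2a1 lower on TKO-Mock. At most 1 epithelial, 4 skeletal muscle, 4 adipocyte and 1 germ line marker were detected on a mock array, and Pparg was higher and Acta1 lower on TKO-Mock. In whole cultures, fewer cells of a type and less RNA per cell cannot be told apart.

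**Figure D1:**
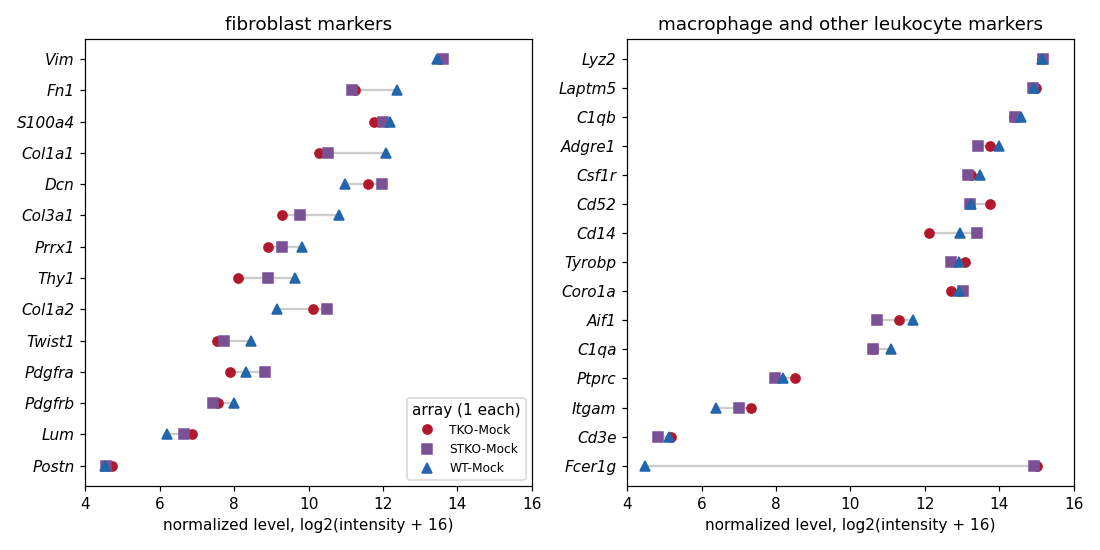
Normalised log2 level of fibroblast and of macrophage and other leukocyte marker genes on TKO-Mock, STKO-Mock and WT-Mock, 1 row a gene and 1 symbol an array, on a log2(intensity + 16) scale. Postn and Cd3e were not detected on any of the 3. Both sets hold dim and bright members, such as Lum (6.20) and Vim (13.46), and Itgam (6.39) and Lyz2 (15.13), on WT-Mock. Fcer1g alone, at 15.02 on TKO-Mock, 14.93 on STKO-Mock and 4.49 on WT-Mock, is far apart between genotypes.

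Loss of Trex1 without added DNA went with higher levels of interferon-stimulated genes and lower levels of matrix, contractile and homeobox genes. Of 9558 genes tested, 414 were 2-fold or more higher on TKO-Mock (4.33%) and 547 were lower (5.72%) relative to WT-Mock, 10.1% in all. Counted by probes, of which several can report 1 gene, 4.44% of 16843 were higher and 5.1% lower, 9.54% in all. The higher genes reached further, with 118 past 4-fold and 26 past 16-fold, while 52 of the lower genes were past 4-fold and 2 past 16-fold. The median over all genes tested was a log2 difference of -0.04. On the dim array 95 of the higher and 149 of the lower genes were not detected, so for these a lower bound of the fold is given. The counts past 4-fold and 16-fold use the normalised difference, also where only a bound holds. Mx1, Ifi211 and Trim30d count as past 16-fold, while their bounds are 14.9-fold, 11.8-fold and 10.5-fold. Values around the threshold were continuous, with Slc35e4 and Abhd5 just inside it (1.0011 and 1.0013) and Ldhb and Serpinb6b just outside (0.9983 and 0.9981). Among the lower, Snai2 (-1.0005) and Fam229b (-1.0009) were inside and Plod2 (-0.9996) and Ccng1 (-0.9988) outside.

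The highest gains measured on both arrays were in antiviral and chemokine genes. Oasl1, a 2′-5′-oligoadenylate synthetase-like gene, stood at log2 12.92 on TKO-Mock, was not detected on STKO-Mock (4.82) and stood at 6.81 on WT-Mock, a 69.3-fold gain over WT-Mock. Cxcl10 stood at 14.54 on TKO-Mock, 6.70 on STKO-Mock and 8.74 on WT-Mock (55.8-fold). Rsad2 stood at 15.14 on TKO-Mock, 8.02 on STKO-Mock and 9.85 on WT-Mock (39.1-fold). For all 3 genes TKO-Mock was far above the other mock arrays, and STKO-Mock was below WT-Mock. Mx2, a dynamin-like antiviral GTPase, was at 11.64 on TKO-Mock against 6.63 on WT-Mock (32.3-fold), and Cmpk2, a mitochondrial nucleotide kinase gene next to Rsad2 on chromosome 12, at 13.44 against 8.76 (25.7-fold). Cd69, an early activation marker of leukocytes, was 31.4-fold higher by its brighter probe, while its probes ranged from 0.53 to 4.97 in log2 difference. The other genes of the 15 with the highest measured gains were Ifit2, Cxcl9, Cd274, Ctsc, Ifit3, Usp18, Enpp4, Phf11a and Ccrl2, at 11.2-fold to 22.4-fold.

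Several genes were detected on TKO-Mock and not on WT-Mock. Ifnb1, the gene of interferon beta, had a raw intensity of 2388.3 on TKO-Mock against 80.2 on STKO-Mock and 82.2 on WT-Mock, both at background, and was at least 49.5-fold higher in TKO-Mock relative to WT-Mock. Interferon beta message was thus present in Trex1-deficient cells given no DNA, and was not detected on the other mock arrays. The Ifi200-family genes Ifi213 and Ifi205 exceeded WT-Mock by at least 65.7-fold and by at least 49.8-fold and were not detected on STKO-Mock either. Other probes of these genes differed less, with lowest log2 differences of 4.00 (Ifi213) and 3.66 (Ifi205) against an undetected WT-Mock. Trim30a, a tripartite-motif gene, was at least 38.9-fold higher, at 10.79 on TKO-Mock, 8.47 on STKO-Mock and 4.89 on WT-Mock. Fcer1g had the highest bound, at least 729-fold, with raw intensities of 34891.4 on TKO-Mock, 32219.0 on STKO-Mock and 61.6 on WT-Mock, read by 1 probe. Whether this probe reads the message of both strains equally was not tested.

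**Figure D2:**
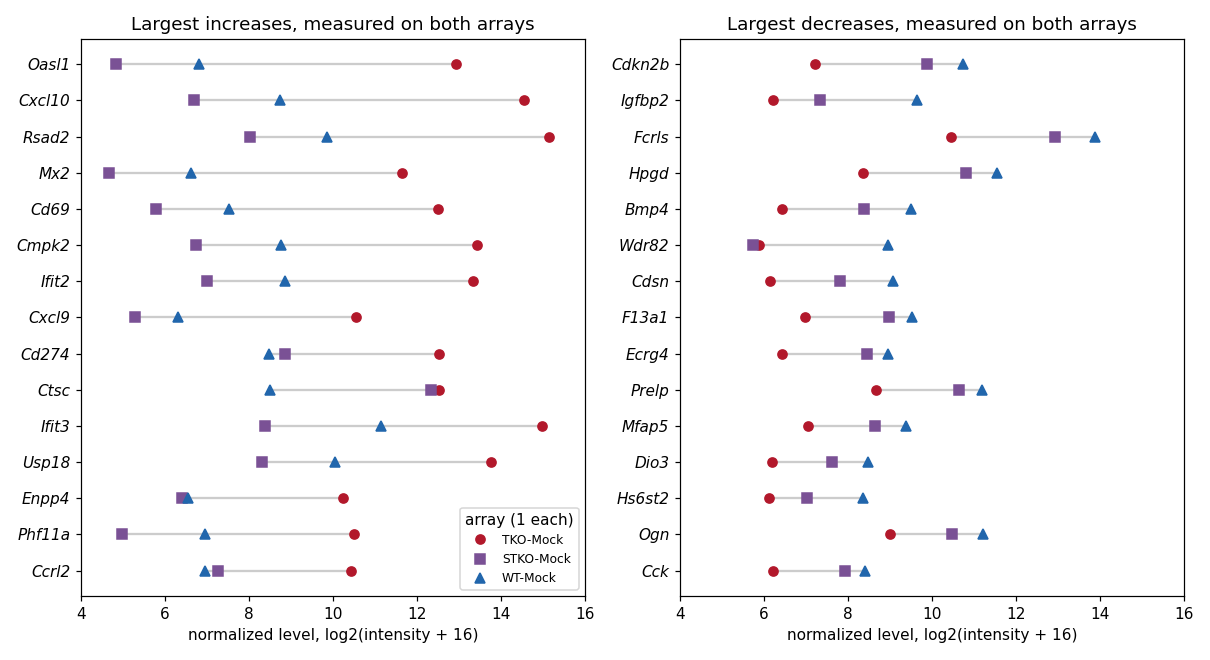
Normalised level, log2(intensity + 16), of the 15 genes with the largest increases (left) and the 15 with the largest decreases (right) among genes detected on TKO-Mock and WT-Mock, 1 row a gene and 1 symbol an array. Among the higher genes STKO-Mock lies next to TKO-Mock in Ctsc (12.34 and 12.53) and near or below WT-Mock in the others. Among the lower genes it lies between the other arrays except in Wdr82.

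Among the sensors and signalling genes upstream of interferon, several nucleic acid sensors were higher, while the adaptors and the kinase Tbk1 were under 2-fold. Of 30 tested genes of the list, 11 were higher and 0 lower, with a median of 0.44, where 4.33% of all genes were higher. Ifi204, Ifi205 and Ifi211 were not detected on WT-Mock and passed the filter through their level on TKO-Mock. They could only be higher, which leaves 8 detected on both arrays. Irf7, the transcription factor that amplifies interferon production, had raw intensities of 2156.1 on TKO-Mock, 120.8 on STKO-Mock and 294.3 on WT-Mock (8.96-fold after normalisation). The RNA sensor genes Ifih1 (MDA5) and Ddx58 (RIG-I) were 5.54-fold and 3.61-fold higher, and Dhx58, their relative, 3.76-fold. Cgas, the DNA sensor itself, stood at 11.65 on TKO-Mock, 10.43 on STKO-Mock and 10.16 on WT-Mock (2.82-fold). The DNA-binding genes Ifi204 (at least 10.99-fold) and Ifi211 (at least 11.8-fold) were higher, and Zbp1, Adar and Aim2 were 2.45-fold to 3.51-fold higher. Tbk1 (0.33), Irf3 (-0.09), Mavs (0.19) and Sting1 (-0.21) differed by less than 2-fold, as did the nucleases Samhd1 (0.88) and Rnaseh2a (0.27).

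The tested interferon receptors and JAK kinases were all under 2-fold, while feedback regulators and transcription factors of the pathway were higher. Of 20 tested genes in this list, 5 were higher and 0 lower, with a median of 0.19, where 4.33% of all genes were higher. Ifnb1 and Socs1 were not detected on WT-Mock and passed the filter through their level on TKO-Mock. They could only be higher, which leaves 3 detected on both arrays. Usp18, which removes ISG15 from proteins and damps receptor signalling, stood at 13.77 on TKO-Mock, 8.32 on STKO-Mock and 10.06 on WT-Mock (13.1-fold). Irf1 was 4.93-fold and Stat2 4.83-fold higher, and Socs1, a feedback inhibitor, at least 2.08-fold. Ifnar2 (-0.36), Jak1 (0.20), Tyk2 (0.01) and Ifngr1 (-0.50) were under 2-fold. Irf9, a DNA-binding factor of the pathway, was at 0.93.

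Antiviral effectors were the list with the most higher genes. Of 49 tested members 38 were higher and 0 lower, a median of 1.78 against -0.04 over all genes, of which 4.33% were higher. Of 56 members on the array 7 were not tested, and 8 of the 38 were not detected on WT-Mock and passed the filter through their level on TKO-Mock, which leaves 30 detected on both arrays. On STKO-Mock the same 49 had a median of -0.47 against WT-Mock, and 32 of the 38 higher genes lay below WT-Mock there, where 49.5% of all genes did. Ifit3 stood at 14.98 on TKO-Mock, 8.37 on STKO-Mock and 11.16 on WT-Mock (14.1-fold). Isg15, a ubiquitin-like modifier, stood at 11.62 on TKO-Mock, 6.75 on STKO-Mock and 8.43 on WT-Mock (9.11-fold). Mx1 was higher by at least 14.9-fold and was detected on TKO-Mock alone of the mock arrays. The oligoadenylate synthetase genes, whose products activate RNase L, were spread from Oas1g at 3.29-fold to Oas3 at 4.91-fold, with Oas1b at least 3.21-fold. Eif2ak2 (PKR), which stops translation, was 3.01-fold higher. Bst2 (0.99), Zc3hav1 (0.82), Ifitm3 (0.26) and Ifi27 (-0.06) were members under 2-fold.

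Interferon-inducible GTPases attack vacuoles that hold microbes. Of 14 members on the array 9 were tested, and 9 were higher, where 4.33% of all genes were. Their median was 2.81 on TKO-Mock and -0.51 on STKO-Mock. Gbp5 and Tgtp1 were not detected on WT-Mock and passed the filter through their level on TKO-Mock, so they could only be higher, which leaves 7 detected on both arrays. Gbp2 stood at 13.03 on TKO-Mock, 9.99 on STKO-Mock and 10.38 on WT-Mock (6.27-fold), and Gbp5 was at least 23.8-fold higher. Igtp (8.69-fold), Irgm2 (6.99-fold) and Irgm1 (2.48-fold) represent the other branch of the family. In antigen presentation 8 of 22 tested genes were higher and 0 lower, a median of 0.88, where 4.33% of all genes were higher. Nlrc5, the transactivator of MHC class I genes, was 4.36-fold higher and the peptide transporter Tap1 4.19-fold. Nonclassical class I genes led, with H2-T10 at 4.36-fold, while the classical genes H2-K1 (0.18) and H2-D1 (0.86) and B2m (0.08) were under 2-fold. Class I and GTPase families hold near-identical members, whose signals 1 probe may mix.

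Chemokine genes were higher in 8 of 17 tested members and lower in 0, a median of 0.82, where 4.33% of all genes were higher. Cxcl9, like Cxcl10 a ligand of CXCR3, stood at 10.54 on TKO-Mock, was not detected on STKO-Mock (5.29) and stood at 6.32 on WT-Mock (18.7-fold). Ccl12 was 9.41-fold, Ccl5 5.22-fold, Ccl3 3.78-fold and Ccl4 3.43-fold higher. The Ccl4 probe used stood at 15.20 on TKO-Mock, near the highest level on that array (15.44), and its other probe differed by 3.26. Ccl8 stood at 7.97 on TKO-Mock, 8.30 on STKO-Mock and 6.85 on WT-Mock and so was high on both deficient arrays. The neutrophil chemokines Cxcl1 (0.20) and Cxcl2 (0.22) were under 2-fold. Of 25 tested cytokine and NF-kB genes 6 were higher and 2 lower, where 4.33% of all genes were higher and 5.72% lower. With no background correction or with the deposited normalised values 1 was lower. Among the higher were Il15 (4.28-fold), Tnf (3.90-fold), Il6 (3.77-fold) and Tnfaip3 (2.79-fold). Tnfsf10, also higher, was not detected on WT-Mock and passed the filter through its level on TKO-Mock. The lower pair were Saa3 (2.89-fold) and Il1b (at least 2.76-fold lower on TKO-Mock, and lower on STKO-Mock too). Il1b was not detected on TKO-Mock and passed the filter through its level on WT-Mock. The inhibitor gene Nfkbia was at 0.59 and Icam1 at 0.01. In the complement list C2 was 7.57-fold higher and Cd55 at least 1.60-fold lower by its bound, of 8 tested. Of all genes 4.33% were higher and 5.72% lower. Cd55 was not detected on TKO-Mock and passed the filter through its level on WT-Mock. Cd55 was under 2-fold in 3 of the alternatives, those with no background correction, an offset of 50 or the deposited normalised values.

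**Figure D3:**
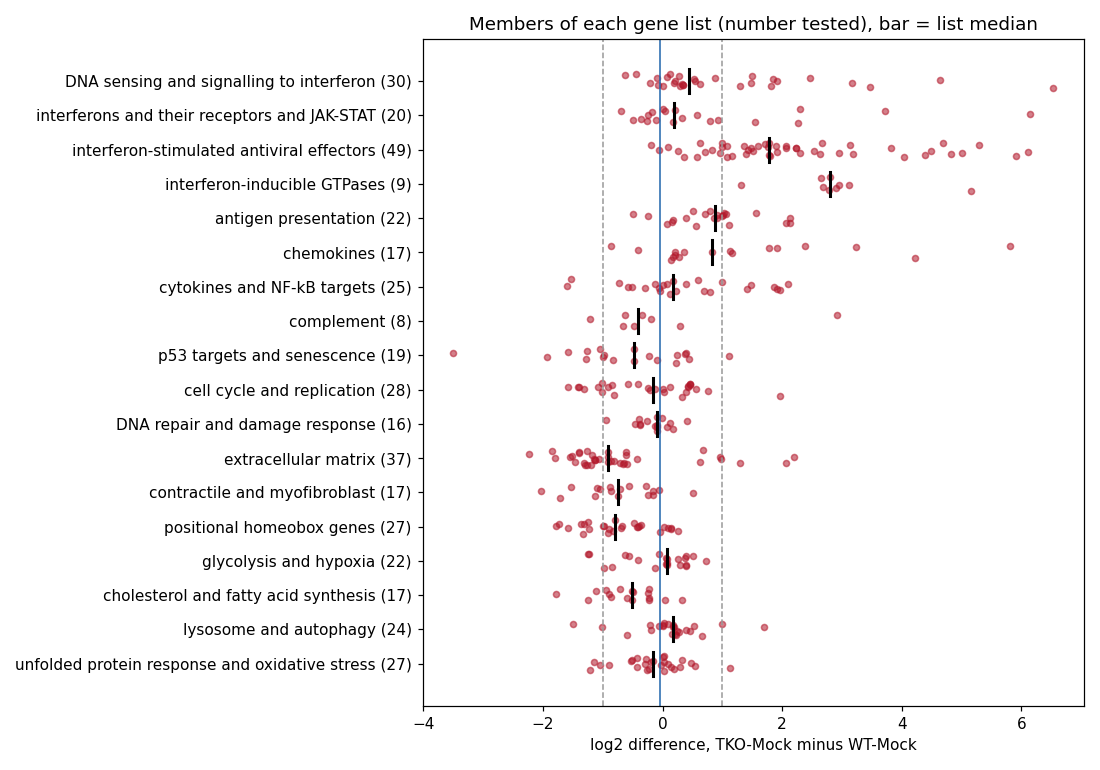
Log2 difference of TKO-Mock minus WT-Mock for every tested member of each gene list but that of the Y chromosome and Xist, 1 point a gene, with the list median as a bar, dashed lines at 2-fold either way and a blue line at the median of all genes (-0.04). Antiviral effectors (median 1.78) and interferon-inducible GTPases (2.81) lie highest, and extracellular matrix (-0.91) and homeobox genes (-0.80) lowest.

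Extracellular matrix genes were the list with the most lower genes, 18 of 37 tested against 5.72% of all genes, and 3 were higher, against 4.33%. Their median was -0.91 on TKO-Mock and -0.33 on STKO-Mock, both against WT-Mock. Col1a1, a chain of type I collagen, stood at 10.27 on TKO-Mock, 10.52 on STKO-Mock and 12.08 on WT-Mock, 3.50-fold lower on TKO-Mock. The other chain, Col1a2, was higher by 0.98, so the chains of 1 collagen did not move together. Ogn, a small leucine-rich proteoglycan, was 4.69-fold lower, Fbln2 3.60-fold, Thbs1 2.92-fold and Col3a1 2.87-fold. The higher members were all matrix metalloproteinases, Mmp13 (4.60-fold), Mmp9 (4.19-fold) and Mmp10 (2.44-fold). Probes of Mmp13 ranged from 0.91 to 2.20 in log2 difference. Mmp12, outside the list and a macrophage elastase, was 5.06-fold higher. Of the 18 lower genes, 8 were also 2-fold lower on STKO-Mock. Of the 3 higher members, Mmp13 (1.53) and Mmp9 (1.86) were also 2-fold higher on STKO-Mock than on WT-Mock, as was Mmp12 (1.51). The lower sum of fibroblast markers on TKO-Mock, given above, holds some of these genes, and its part in the differences was not tested.

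Contractile and positional genes were lower as well, in larger shares than the 5.72% of all genes. Of 17 tested contractile and TGF-beta genes 6 were lower and 0 higher, led by Actg2, smooth muscle gamma actin, at 10.99 on TKO-Mock, 12.23 on STKO-Mock and 13.01 on WT-Mock (4.08-fold), and Tpm2 (3.27-fold). Acta2 was at -0.57. Lmod1, 1 of the 6, was not detected on TKO-Mock and passed the filter through its level on WT-Mock, so it could only be lower. Of 27 tested homeobox and T-box genes, which record where in the body fibroblasts came from, 8 were lower and 0 higher. Of the 8, 2 were not detected on TKO-Mock and passed the filter through their level on WT-Mock. These 2 could only be lower. En1 was 3.33-fold (its other probe at -0.88) and Hoxc6 2.98-fold lower, Hoxd10 at least 2.49-fold. Of the 8 only Tbx18 was also 2-fold lower on STKO-Mock. The median of this list was -0.80 on TKO-Mock and -0.46 on STKO-Mock.

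Growth control genes divided. Cdkn2b, which encodes the cyclin-dependent kinase inhibitor p15, had the largest measured decrease of any named gene, at 7.22 on TKO-Mock, 9.89 on STKO-Mock and 10.74 on WT-Mock (11.4-fold). Its neighbour Cdkn2a was 3.80-fold lower and stayed 2-fold lower on STKO-Mock, at 7.55 on TKO-Mock, 8.04 on STKO-Mock and 9.48 on WT-Mock. The p53 targets Sesn1 (2.42-fold) and, by its brighter probe, Phlda3 (2.40-fold) were lower, while the other Phlda3 probe differed by -0.38. Cdkn1a was at 0.44 and Mdm2 at 0.23. In the p53 and senescence list 6 of the 19 tested genes were lower and 1 higher. In the cell cycle list 7 of 28 were lower and 1 higher. In both lists the share lower was above the 5.72% of all genes. The share higher, 5.26% and 3.57%, was near the 4.33% of all genes. Igfbp3 in the first list and Ccna2 in the second were not detected on TKO-Mock. They passed the filter through their level on WT-Mock and could only be lower. The lower cell cycle genes act mainly in mitosis, such as Cdc20 (3.00-fold), Birc5 (2.67-fold) and Bub1b (2.47-fold, its other probe at -0.685). On STKO-Mock 4 of the 7 were slightly above WT-Mock. Only 4 of the 7 stayed 2-fold lower with no background correction, an offset of 50, median scaling or the deposited normalised values. The replication genes Mcm2 (0.55), Mcm6 (0.76) and Pcna (0.43) were on the higher side under 2-fold. Plk1, a mitotic kinase, went against its neighbours in the list, at 8.58 on TKO-Mock, 9.91 on STKO-Mock and 6.61 on WT-Mock.

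In the remaining lists at most 3 members were lower. Where any was lower, the share was above the 5.72% of all genes. None of 16 tested DNA repair genes was 2-fold apart, where 10.1% of all genes were, with Atm at 0.40 and H2ax at -0.95. Of 22 glycolysis and hypoxia genes 2 were lower (Adm and Ankrd37), of 17 cholesterol and fatty acid genes 3 were lower (Scd1, Scd2 and Stard4, with a list median of -0.51), of 24 lysosome and autophagy genes Ctsl was higher and Glb1 and Map1lc3a lower, and of 27 stress genes Atf3 was higher and Chac1, Herpud1 and Gsta4 lower. With no background correction or with the deposited normalised values, 0 of the glycolysis and hypoxia genes, 1 of the cholesterol and fatty acid genes and 1 of the lysosome genes were lower. The other probe of Map1lc3a differed by -0.57. Scd2 was not detected on TKO-Mock and passed the filter through its level on WT-Mock, so it could only be lower. The share higher was 4.17% among lysosome and autophagy genes and 3.70% among stress genes, near the 4.33% of all genes. The 3 tested genes of the Y chromosome lay between -0.63 and -0.02.

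Outside the lists, the largest measured decreases after Cdkn2b were in Igfbp2 (10.9-fold), a binding protein of insulin-like growth factors, Fcrls (10.8-fold), Hpgd (9.16-fold), which inactivates prostaglandins, and Bmp4 (8.46-fold). Fcrls, known from mouse microglia, stood at 10.44 on TKO-Mock, 12.93 on STKO-Mock and 13.88 on WT-Mock. Wdr82, Cdsn, F13a1, Ecrg4, Prelp, Mfap5, Dio3, Hs6st2 and Cck were 4.60-fold to 8.40-fold lower. Serpina3n, an inflammation-induced protease inhibitor, was not detected on TKO-Mock (5.20) and stood at 10.47 on STKO-Mock and 9.82 on WT-Mock, at least 17.9-fold lower on TKO-Mock. Ifi202b, another Ifi200-family gene, was lower where its relatives were higher. It was not detected on TKO-Mock (5.13) or STKO-Mock (4.61) and stood at 10.50 on WT-Mock, at least 28.6-fold lower on TKO-Mock. Ifi202b is known to differ in expression between mouse strains.

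The array of cells that also lack Sting was then read for the same genes. It shares the WT-Mock array with the first comparison, so a low or high WT-Mock value places a gene on the same side in both. Of the 414 genes higher on TKO-Mock, 60 (14.5%) were also 2-fold higher on STKO-Mock, against 1.05% of all genes tested (0.986% of probes). Another 192 were above WT-Mock by less than 2-fold, 131 below it by less than 2-fold, and 31 (7.49%) were 2-fold below it, against 2.23% of all genes. The median of the 414 was 1.48 on TKO-Mock and 0.16 on STKO-Mock, both against WT-Mock. Of the 547 lower genes 110 (20.1%) were also 2-fold lower on STKO-Mock, against 2.23% of all genes (2.09% of probes), 368 were lower by less, 66 above by less than 2-fold and 3 (Rpe, Slco4a1 and Erdr1) 2-fold above. Their median was -1.28 on TKO-Mock and -0.56 on STKO-Mock.

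The share of genes 2-fold below WT-Mock on STKO-Mock differed by the size of the gain on TKO-Mock. Among 26 genes at least 16-fold higher on TKO-Mock by the normalised difference, 9 (34.6%) were 2-fold below WT-Mock on STKO-Mock. Among 92 at 4- to 16-fold 14 were (15.2%), and among 296 at 2- to 4-fold 8 were (2.70%). The share also 2-fold higher on STKO-Mock had no such order, at 4 of the 26 (15.4%), 23 of the 92 (25%) and 33 of the 296 (11.2%). Of the 414 higher genes 95 were not detected on WT-Mock, and 0 of the 31 genes 2-fold below it were among these. A gene at background on WT-Mock has little room below it, so the shares by size mix genes with and without such room. The genes below WT-Mock by most were interferon-stimulated. Ifit3 was lower on STKO-Mock than on WT-Mock by a log2 difference of -2.78, Cxcl10 by -2.04, Cmpk2 by -2.02, Irf7 by -1.94 and Rsad2 by -1.83. These 5 genes were detected on all 3 mock arrays. Oasl1 was detected on WT-Mock and not on STKO-Mock, as were 9 of the 31 genes in all, and their differences are not exact. Directly against STKO-Mock, 261 of the 414 higher genes (63.0%) were 2-fold higher on TKO-Mock, and 175 of the 547 lower ones (32.0%) were 2-fold lower. These genes were chosen by their level on TKO-Mock, which this count uses again, so raised shares are built in. Of all 16387 probes detected on TKO-Mock or STKO-Mock, 671 were 2-fold higher on TKO-Mock and 473 lower.

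**Figure D4:**
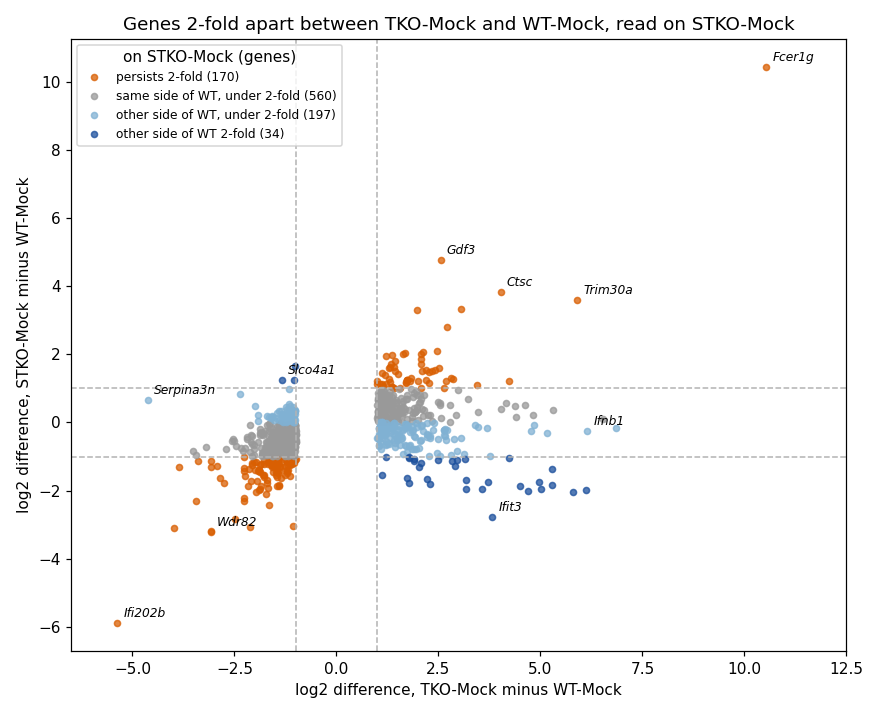
Each gene 2-fold apart between TKO-Mock and WT-Mock by its log2 difference there (x axis) and by its log2 difference of STKO-Mock minus WT-Mock (y axis), 1 point a gene, coloured by its place on STKO-Mock, with dashed lines at 2-fold. The 60 genes higher and the 110 lower on both arrays lie beyond the lines on the same side. Beyond them on the other side lie 31 of the higher and 3 of the lower genes. The rest lie within 2-fold of WT-Mock on the y axis, where the median of all lower genes is -0.56. Both axes use the WT-Mock array.

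Of the 38 antiviral effectors that were higher, Trim30a alone was among the 60 genes higher on both deficient arrays. Ctsc, a lysosomal protease that activates granule enzymes, stood at 12.53 on TKO-Mock, 12.34 on STKO-Mock and 8.51 on WT-Mock (16.2-fold on TKO-Mock against WT-Mock). Cd48, a SLAM-family surface receptor, stood at 8.33 on TKO-Mock, 8.60 on STKO-Mock and was not detected on WT-Mock (5.28). Gdf3, a TGF-beta family ligand, stood at 9.26 on TKO-Mock, 11.47 on STKO-Mock and 6.71 on WT-Mock, higher on STKO-Mock than on TKO-Mock. S100a8, an alarmin of myeloid cells, stood at 10.23 on TKO-Mock, 9.33 on STKO-Mock and 7.81 on WT-Mock. Casp4, the sensor of intracellular lipopolysaccharide, stood at 9.75 on TKO-Mock, 8.23 on STKO-Mock and 6.93 on WT-Mock, and its 3 probes ranged from 1.04 to 5.39. Casp4 is known to differ between 129 and C57BL/6 mice. H2-M2, a nonclassical class I gene, was 10.9-fold higher on TKO-Mock and differed by 1.09 on the log2 scale on STKO-Mock. Trim30d stood at 8.91 on TKO-Mock and 5.88 on STKO-Mock and was not detected on WT-Mock, as were 16 of the 60.

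The pair of arrays with ISD shares no array with the mock comparison and was used to see whether these genotype differences were present in it. All 6 arrays were normalised together. Whether the ISD and mock arrays of a genotype came from the same culture is not stated, so this pair is not a replicate of genotype. Of the 60 genes higher on both deficient mock arrays, 46 (76.7%) were 2-fold higher on TKO-ISD than on WT-ISD, against 3.13% of all genes tested. Of the 110 lower ones 78 (70.9%) were 2-fold lower there, against 4.56%. Of 162 higher genes with STKO-Mock at or below WT-Mock, 19 (11.7%) were 2-fold higher on TKO-ISD than on WT-ISD. Of 69 lower genes with STKO-Mock at or above WT-Mock, 32 (46.4%) were 2-fold lower on TKO-ISD. Cxcl10 stood at 15.32 on both TKO-ISD and WT-ISD, and Rsad2 at 15.11 on TKO-ISD and 15.20 on WT-ISD. Fcer1g stood at 15.01 on TKO-ISD and 4.64 on WT-ISD. The values of Cxcl10 and Rsad2 lie near the highest on any of these arrays (15.44), and whether a difference could be measured at this level was not tested. Fcer1g was below the lowest detected level of WT-ISD (5.91).

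Promoter matches to the same ISRE core were counted over the same groups of genes. Of 7775 tested genes with a window in the table, 309 (3.97%) held a match, and of all 32851 windows 1131 (3.44%) did. Among the higher genes 59 of 340 (17.4%) held one, and among those at least 16-fold higher by the normalised difference 10 of 19 (52.6%). The share was 39 of 132 (29.6%) for higher genes with STKO-Mock at or below WT-Mock and 4 of 52 (7.69%) for those 2-fold higher on both deficient arrays. Lower genes held one in 16 of 405 (3.95%). In the antiviral list the share was 12 of 30 (40.0%) for the higher genes and 16 of 39 (41.0%) for all tested ones, so within that list a match did not go with being higher. Oasl1, Cmpk2 and Ifit2 were among the highest gains and hold no match in this window. No other motif was searched, and a match describes these letters and not a bound site.

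Genes lower on both deficient arrays made up a larger share of the neighbours of Trex1 than of all genes. Trex1 lies on chromosome 9, and RefSeq's order of coding genes was used to count neighbours, in windows chosen after values had been seen. Of the 110 genes lower on both, 6 (5.45%) lay within 100 coding genes of Trex1, against 95 of 9546 tested genes placed (1.00%), and 12 (10.9%) within 400, against 3.04%. Of the 161 placed genes that were higher on TKO-Mock and at or below WT-Mock on STKO-Mock, 0 lay within 100 and 2 (1.24%) within 400. Wdr82, a subunit of histone methyltransferase complexes 100 coding genes away, stood at 5.88 on TKO-Mock, 5.72 on STKO-Mock and 8.95 on WT-Mock, while its other probe differed by -0.56. Me1, the malic enzyme gene, was at least 4.24-fold lower on TKO-Mock (4.67, against 4.55 on STKO-Mock and 7.75 on WT-Mock) and lies 228 coding genes away. Pik3r4, Dusp7, Rpl29, Parp3, Sema3f, Cx3cr1, Amotl2, Tbx18, Prss35 and Epm2aip1 were the others. The 4 probes of Epm2aip1 ranged from -3.85 to 0.20 in log2 difference, so probes of 1 gene disagreed. Lars2, 161 coding genes away, was the gene within this range that was higher on both arrays (2.07 on TKO-Mock and 2.01 on STKO-Mock).

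**Figure D5:**
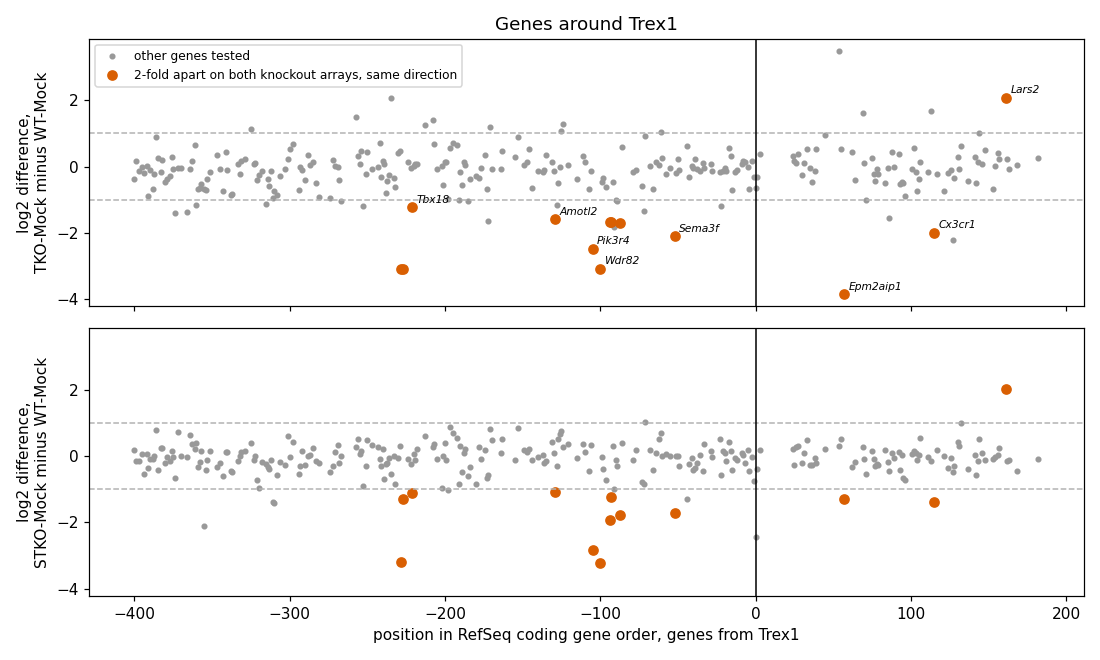
Log2 difference of TKO-Mock minus WT-Mock and of STKO-Mock minus WT-Mock for tested genes within 400 coding genes of Trex1 on chromosome 9, by place in the gene order (x axis, 0 is Trex1), 1 point a gene, with dashed lines at 2-fold and large points for genes 2-fold apart the same way on both arrays. The genes 2-fold lower on both arrays, 12 in all, lie between 228 coding genes before and 115 after Trex1.

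A second group of such genes lay around Fcer1g on chromosome 1. Within 50 coding genes of Fcer1g, a window likewise chosen after values had been seen, lay 49 tested genes, 0.51% of all. It held 7 of the 60 genes higher on both deficient arrays (11.7%), Fcer1g itself among them, and 4 of the 110 lower ones (3.64%). Uap1 (1.63 on TKO-Mock and 2.00 on STKO-Mock, both against WT-Mock), Sh2d1b1, Cd48, Slamf9, Igsf9 and Dusp23 were higher, and Nuf2, Rgs4, Adamts4 and Fcgr3 were lower. Fcgr3, an Fc gamma receptor that signals through the chain encoded by Fcer1g, stood at 11.04 on TKO-Mock, 11.06 on STKO-Mock and 12.74 on WT-Mock. Farther along the same chromosome lie the Ifi200-family genes. There Ifi213, Ifi214, Ifi204, Ifi211 and Ifi205 were detected on TKO-Mock and on neither other mock array, with log2 differences to WT-Mock from at least 3.46 (Ifi204) to at least 6.04 (Ifi213), whereas Ifi202b, which lies among them, was lower on both. Strain, culture and genotype cannot be told apart in these values.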

How the data were processed

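Total RNA of 6 cultures was measured on Illumina mouse arrays of 45281 probes. The authors deposited a table of raw intensity values, not normalized per its name, with a detection value beside each. Per the file headers that value is a detection p-value, but it rises with signal (Spearman's rho 0.9837 to 0.9884) in steps of 1 over 936, so the deposited fraction was taken to count how many of 936 negative controls lie below the probe. The authors also deposited a normalized table, found from its values to be log2 and centred on each probe's median over the arrays. Its column medians are -0.01 or 0, and its method is not given in the sources used here. Its differences between TKO-Mock and WT-Mock followed those of the raw log2 intensities (r = 0.9945, slope 1.006, over 7085 bright probes).

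Intensities of all 6 arrays were processed with neqc of limma 3.58.1 in R 4.3.3 (background estimated from the detection fractions, offset 16, quantile normalization, log2). The offset understates changes of dim probes. Detection needed a fraction above 0.99 on at least 1 of the 2 arrays, and a call 2-fold or more. Genes came from the platform annotation table, where 34885 probes had 1 gene, 18 several and 10378 none, and 34807 matched RefSeq by Entrez ID. A gene is its brightest detected probe, and 3 genes with probes 2-fold apart both ways were counted in neither direction. A bound sets the bright level against the higher of the dim probe's level and the lowest detected level on the dim array. Named were the 15 largest measured differences and 5 largest bounds in each direction and up to 6 genes a list, and other genes named were chosen after their values were seen. The 19 gene lists, 9 marker lists and all members were chosen with earlier results of these data known. Counting was tested on simulated data. Python 3.11.15, numpy 2.4.6, pandas 2.3.3 and matplotlib 3.10.9 were used. The number of arrays limits the precision. Alternatives changed background correction, offset, normalization, arrays, fold, detection filter, probe choice and table.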

Additional observations from a re-analysis of the deposited data

Results flagged for a closer look

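A few genes differed 2-fold or more one way between TKO-Mock and WT-Mock and the other way between TKO-ISD and WT-ISD. With 1 array a group, the difference between these comparisons was not tested. Ccl12 was higher by 3.23 on TKO-Mock than on WT-Mock and differed by -1.33 with ISD. Ccl8 differed by 1.13 and -1.14, Ch25h, which makes 25-hydroxycholesterol, by 1.46 and -1.03, and BC147527 by 1.87 and -1.19. The reverse order was seen for Dedd2 (-1.0 on the mock arrays and 1.48 with ISD), Mbp (-1.11 and 1.16), Sesn2 (-1.04 and 1.02) and Slco4a1 (-1.33 and 1.06).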

How the results depend on the processing

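The counts of probes moved with the fold, the background and the detection filter. At 2-fold, TKO-Mock had 748 higher and 859 lower probes relative to WT-Mock, of which 104 and 191 were 2-fold apart on STKO-Mock too. With no background correction 447 were higher and 403 lower (48 and 79 on STKO-Mock too), and 273 and 278 genes in place of 414 and 547. With an offset of 50, 488 probes and 336 genes were lower, and 59 higher and 98 lower probes were apart on STKO-Mock too. The deposited normalized values gave 450 and 411 probes (48 and 82). At 1.5-fold the counts were 1834 and 2279 (397 and 716), and at 4-fold 204 and 79 (23 and 15), so that 72.1% of calls were higher at 4-fold and 46.5% at 2-fold. Detection on both arrays left 107 lower probes apart on STKO-Mock too. The other counts stayed within 1.5 times. None of the 113 named genes changed direction under the alternatives for genes. With no background correction 14 fell under 2-fold, as did 14 in the deposited normalized values, 9 with an offset of 50, 3 with median scaling, 2 with the mean of a gene's probes and 1 with the mock arrays normalized alone. Antiviral effectors had 35 to 40 higher members under these alternatives and matrix genes 16 to 18 lower ones. Counts of lower members moved in 6 lists. With no background correction and with the deposited normalized values, glycolysis and complement had 0, cholesterol, cytokines and lysosome 1 each and the cell cycle 4. With an offset of 50, complement and glycolysis had 0, lysosome 1 and the cell cycle 4. Median scaling left 4 in the cell cycle and 1 in lysosome, and the mock arrays normalized alone 1 in lysosome. No paired analysis was possible because each group is 1 array and the labels carry no replicate numbers. Background limits dim genes, whose folds are lower bounds.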
